A study of Mus musculus with 12 samples.

Results

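The transforming growth factor beta (TGF-beta), bone morphogenetic protein (BMP) and activin genes were taken by symbol: ligands of the Bmp, Gdf, Inha, Inhb and Tgfb series, their receptors, the Smads, and the binding proteins Fst, Fstl, Grem, Nog, Chrd and Ltbp1. Of 60 such symbols in the authors' tables, 50 had at least 1 tested gene model, among 15201 gene symbols tested in all. The tables gave frontal cortex of 12 male mice aged 14 weeks, 4 per group. GluN1Cre mice are the Cre rescue of the Grin1 knockdown, GluN1 mice are the Grin1 knockdown, and WT mice are wild type. All 3 groups were F1 hybrids of C57Bl/6 and 129/SvlmJ, and all received tamoxifen over 2 weeks that began at 10 weeks of age, as a 6 mg oral dose plus roughly 14 mg taken up with the chow. Tamoxifen activates inducible Cre recombinases. The promoter that drives Cre is not given in the sources used here, and no group is labelled as carrying Cre without the Grin1 knockdown, so effects of Cre and of restored Grin1 cannot be told apart.

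Cuffdiff tables held 1 FPKM value per group (fragments per kilobase of transcript, scaled to the depth of sequencing and pooled over the group's libraries), so no spread between animals and no depth per library can be given, and every p and q below is from the authors' deposited table. Grin1, the obligatory subunit of NMDA-type glutamate receptors, lies on chromosome 2 (25291181 to 25319187, GRCm38). It had 56.7 FPKM in GluN1 cortex and 138 FPKM in WT cortex, 86.7 FPKM in GluN1Cre and 65.7 FPKM in GluN1 cortex, and 78.0 FPKM in GluN1Cre and 138 FPKM in WT cortex (each called in the authors' deposited table). Markers of cortical excitatory neurons were present, with Slc17a7, a vesicular glutamate transporter, at 598 FPKM in GluN1 and 626 FPKM in WT cortex. In GluN1 against WT, 5 of their 6 folds were below 0 (median log2 fold -0.11) and 1 marker fell, the deep-layer transcription factor Fezf2, with 9.40 FPKM in GluN1 and 12.6 FPKM in WT cortex. In the same libraries 7 of 8 olfactory bulb marker models rose in GluN1 against WT, with a summed level of 101 FPKM in GluN1 and 36.9 FPKM in WT cortex. Meningeal fibroblast markers rose in 6 of 13 models (summed 106 FPKM in GluN1 and 83.4 FPKM in WT cortex), and 5 of 10 striatal medium spiny neuron models fell (summed 154 FPKM in GluN1 and 179 FPKM in WT cortex). In bulk tissue, fewer cells of a type and less RNA per cell cannot be told apart.

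Ligands of this family are secreted dimers that bring type II and type I receptor kinases together. The type I receptor then phosphorylates receptor-regulated Smads, which join Smad4 and enter the nucleus: Smad2 and Smad3 carry TGF-beta and activin signals, and Smad1, Smad5 and Smad9 carry BMP signals. Extracellular antagonists such as follistatin, gremlin, noggin and chordin bind the ligands and keep them from their receptors. In the brain the family is known for patterning, astrocyte formation and vascular maintenance, and activin A, the dimer of the inhibin beta A chain, is made by neurons after excitation.

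In GluN1 against WT cortex, 3 members rose and 0 fell: the antagonists Fst and Grem1 and the ligand Gdf10. They are 3 of 49 tested member models, where 2.52% of all 18417 tested models were called (p under 0.05 and q under 0.10, the threshold of the series' design text). Of all models 1.66% were called higher and 0.858% lower. The flag deposited with the p and q values is stricter than this threshold. It marked 358, 103 and 122 models in GluN1 against WT, GluN1Cre against GluN1 and GluN1Cre against WT, at a largest q of 0.0489. At an unadjusted p under 0.05, 8 of 49 member models were past the threshold, all of them higher in GluN1, where 7.91% of all models were past it and 4.75% were past it on the higher side and 3.17% on the lower side. Folds were above 0 in 34 of 49 member models, with a median log2 fold of 0.10, against 48.8% of all tested models and a median of -0.00.

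**Figure D1:**
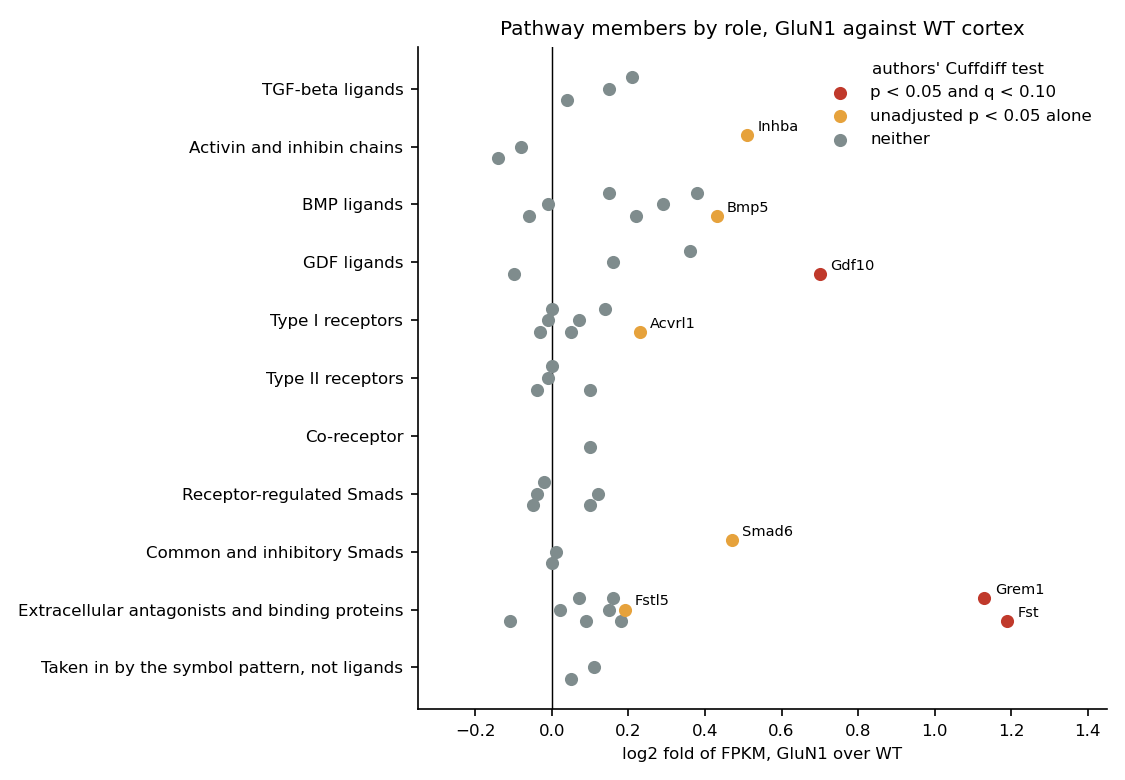
Each point is a tested member model, placed by its role (rows) and its log2 fold of FPKM, GluN1 over WT (horizontal axis); colours give the authors' Cuffdiff result. Fst, Grem1 and Gdf10, at log2 folds of 1.19, 1.13 and 0.70, stand to the right of the other models, while type II receptors lie between -0.04 and 0.10.

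Fst encodes follistatin, a secreted protein that binds activins and blocks their access to receptors. It lies on the minus strand of chromosome 13 (114452290 to 114458951, GRCm38, ENSMUSG00000021765). Fst had 2.24 FPKM in GluN1 cortex and 0.978 FPKM in WT cortex, a log2 fold of 1.19 (with q = 0.00456 in the authors' deposited table). It was also higher in GluN1Cre than in WT, at 1.79 FPKM in GluN1Cre and 0.910 FPKM in WT cortex (log2 fold 0.97, with q = 0.0098 in the authors' deposited table). Between the knockdown genotypes it had 1.81 FPKM in GluN1Cre and 2.06 FPKM in GluN1 cortex, a log2 fold of -0.18 that was not called (p = 0.201 in the authors' deposited table). Fst was the member called in both comparisons with WT. With 1 FPKM added to each level, its log2 folds were 0.71 in GluN1 against WT and 0.54 in GluN1Cre against WT.

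Grem1 encodes gremlin 1, a secreted antagonist of BMP2, BMP4 and BMP7. It lies on the minus strand of chromosome 2 (113746164 to 113758646, GRCm38, ENSMUSG00000074934). Grem1 had 0.899 FPKM in GluN1 cortex and 0.410 FPKM in WT cortex, a log2 fold of 1.13 (with q = 0.0117 in the authors' deposited table). It had 0.674 FPKM in GluN1Cre and 0.902 FPKM in GluN1 cortex (log2 fold -0.42, p = 0.0586 in the authors' deposited table), and 0.664 FPKM in GluN1Cre and 0.410 FPKM in WT cortex (log2 fold 0.69, p = 0.0153, q = 0.698 in the authors' deposited table). All its levels lay below 1 FPKM, and with 1 FPKM added its log2 fold in GluN1 against WT was 0.43. Neither comparison of GluN1Cre was called.

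Gdf10 encodes a secreted ligand, also known as BMP3B, that is related to BMP3. It lies on the plus strand of chromosome 14 (33923587 to 33937983, GRCm38, ENSMUSG00000021943). Gdf10 had 3.55 FPKM in GluN1 cortex and 2.18 FPKM in WT cortex, a log2 fold of 0.70 (with q = 0.00456 in the authors' deposited table). In the table of the knockdown genotypes it had 2.74 FPKM in GluN1Cre and 3.55 FPKM in GluN1 cortex, a log2 fold of -0.38 that did not pass the q threshold (p = 0.0035, q = 0.326 in the authors' deposited table). It had 2.71 FPKM in GluN1Cre and 2.18 FPKM in WT cortex (log2 fold 0.32, p = 0.0331, q = 0.9999 in the authors' deposited table). GluN1Cre was below GluN1 and above WT in the tables that hold each pair, and neither difference was called.

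Markers of the olfactory bulb, of meningeal fibroblasts and of astrocytes were also called higher in GluN1 against WT, beside these 3 genes. Of 5 astrocyte markers 2 rose: Gfap, an intermediate filament, had 54.0 FPKM in GluN1 and 34.6 FPKM in WT cortex, and Aqp4, a water channel, had 28.8 FPKM in GluN1 and 23.5 FPKM in WT cortex. Tbx21, a transcription factor of bulb projection neurons, had 2.83 FPKM in GluN1 and 0.474 FPKM in WT cortex, and 1.41 FPKM in GluN1Cre and 2.85 FPKM in GluN1 cortex. Aldh1a2, a retinoic acid synthesis enzyme of meningeal fibroblasts, had 4.07 FPKM in GluN1 and 2.85 FPKM in WT cortex. Between GluN1Cre and GluN1, 7 of 8 bulb marker models fell (summed 60.1 FPKM in GluN1Cre and 99.8 FPKM in GluN1 cortex) and 0 of 13 fibroblast marker models were called. Fibroblast folds there were below 0 in 10 of 13 models (summed 95.6 FPKM in GluN1Cre and 106 FPKM in GluN1 cortex). Of these models, 4 had an unadjusted p under 0.05. Between GluN1Cre and WT, 6 of 7 bulb marker models rose (summed 59.6 FPKM in GluN1Cre and 36.9 FPKM in WT cortex) and 0 of 12 fibroblast marker models were called. All 12 fibroblast folds were above 0 there (summed 91.9 FPKM in GluN1Cre and 81.0 FPKM in WT cortex), and 4 had an unadjusted p under 0.05. Of all tested models, 46.6% had a fold above 0 in that comparison. No marker on these lists was at 0, and the part of these cells in the rises of Fst, Grem1 and Gdf10 was not tested.

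**Figure D2:**
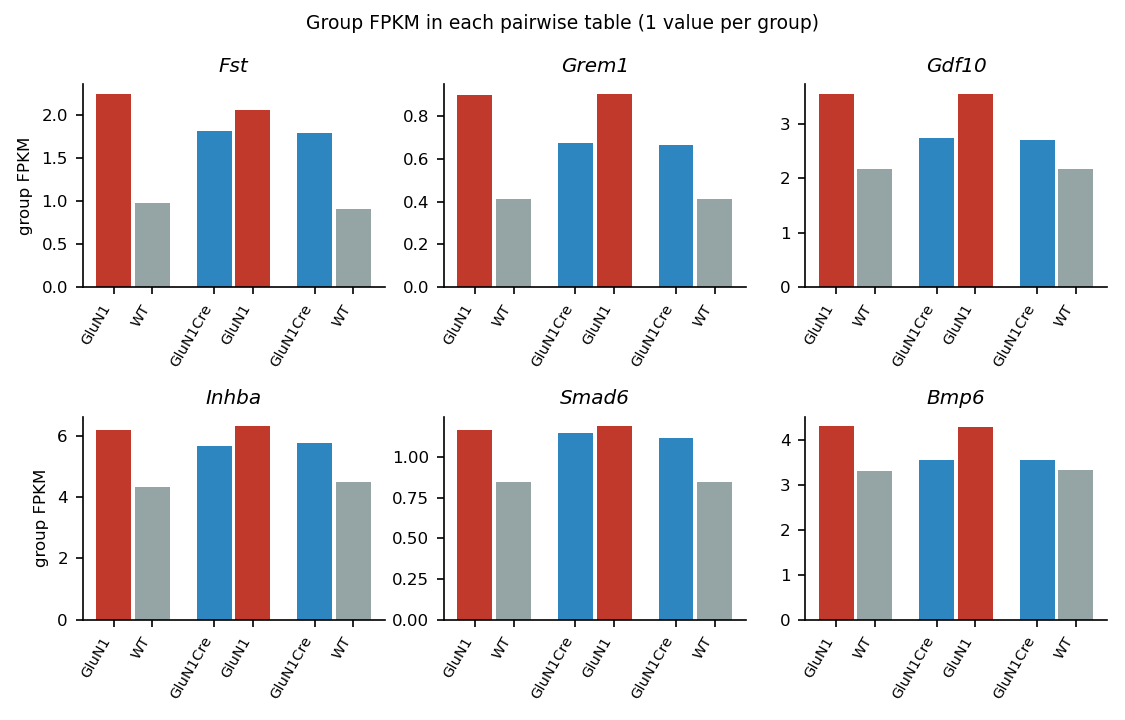
Bars give the group FPKM (vertical axis, from 0) of 6 members in each of the 3 pairwise tables, 1 pooled value per group with no error bar. In the table of GluN1 and WT, Fst stands at 2.24 FPKM in GluN1 and 0.978 FPKM in WT cortex, and in the table of GluN1Cre and GluN1 at 1.81 FPKM in GluN1Cre and 2.06 FPKM in GluN1 cortex; Inhba, Smad6 and Bmp6 were not called in any table.

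Promoter windows are shown for the risen members that have one, because BMP signalling acts through Smad-bound sequence. The window of the inhibitory Smad6 described below, which was not called, is also shown. Windows of other members that were not called, such as Inhba, are not printed. RefSeq windows of GRCm38.p6, from 250 bases before to 50 bases after a gene's start, were found for 36 of the 50 members. They were searched on both strands for GGCGCC, a GC-rich sequence that BMP-activated Smads bind in the mouse Id1 promoter, and for GTCTAGAC, the palindromic Smad-binding element; each reads the same on both strands and the 2 do not overlap. Capitals mark the match. The Gdf10 window (plus strand, chr14:33923337-33923636), the Grem1 window (minus strand, chr2:113758599-113758898) and the Smad6 window (minus strand, chr9:64022010-64022309) read as follows.
Gdf10: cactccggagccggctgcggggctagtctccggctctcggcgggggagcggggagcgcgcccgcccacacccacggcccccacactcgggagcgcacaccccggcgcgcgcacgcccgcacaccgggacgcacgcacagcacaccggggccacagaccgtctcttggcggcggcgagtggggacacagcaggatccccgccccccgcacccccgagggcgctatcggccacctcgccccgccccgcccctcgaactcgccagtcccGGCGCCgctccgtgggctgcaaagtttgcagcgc
Grem1: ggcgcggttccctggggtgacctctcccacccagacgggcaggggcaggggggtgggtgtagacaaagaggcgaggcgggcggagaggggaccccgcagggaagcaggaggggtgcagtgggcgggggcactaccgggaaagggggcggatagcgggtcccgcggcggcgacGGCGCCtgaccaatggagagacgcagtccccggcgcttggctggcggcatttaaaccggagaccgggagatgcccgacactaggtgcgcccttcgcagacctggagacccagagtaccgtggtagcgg
Smad6: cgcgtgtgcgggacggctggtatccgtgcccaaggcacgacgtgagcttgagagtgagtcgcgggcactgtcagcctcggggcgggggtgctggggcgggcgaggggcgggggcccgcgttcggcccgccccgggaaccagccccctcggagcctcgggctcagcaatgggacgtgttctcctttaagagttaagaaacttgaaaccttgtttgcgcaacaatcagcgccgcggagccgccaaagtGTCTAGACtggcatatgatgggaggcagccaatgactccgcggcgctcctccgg
GGCGCC occurred in the windows of Gdf10 and Grem1, in 12 of the 45 member windows, and in 11.9% of all 32851 windows. GTCTAGAC occurred in 1 member window, that of Smad6, and in 0.213% of all windows. Each printed window holds a match, so the windows printed do not stand for the members as a whole. These matches are letters in a window and were not measured as bound sites.

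Among the TGF-beta ligands 0 of 3 were called in any comparison. Of all tested models, 2.52%, 0.689% and 0.841% were called in GluN1 against WT, GluN1Cre against GluN1 and GluN1Cre against WT. At these shares, 0 calls in a role of few models, here and below, does not set that role apart. Tgfb3 had 6.21 FPKM in GluN1 and 5.35 FPKM in WT cortex (log2 fold 0.21, p = 0.102 in the authors' deposited table), and 5.40 FPKM in GluN1Cre and 5.35 FPKM in WT cortex. Its assembled model overlaps Ttll5, and between the knockdown genotypes it had 4.67 FPKM in GluN1Cre and 5.43 FPKM in GluN1 cortex. Tgfb1 had 2.54 FPKM in GluN1 and 2.29 FPKM in WT cortex, and 2.79 FPKM in GluN1Cre and 2.29 FPKM in WT cortex (log2 fold 0.28, p = 0.0619 in the authors' deposited table). Tgfb2 had 2.53 FPKM in GluN1 and 2.46 FPKM in WT cortex.

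Of the inhibin and activin chains, 0 of 3 were called. Inhba, the chain of activin A and a gene induced by neuronal activity, had 6.20 FPKM in GluN1 and 4.34 FPKM in WT cortex, a log2 fold of 0.51 that did not pass the q threshold (p = 0.0179, q = 0.363 in the authors' deposited table). It had 5.69 FPKM in GluN1Cre and 6.32 FPKM in GluN1 cortex, and 5.77 FPKM in GluN1Cre and 4.51 FPKM in WT cortex (log2 fold 0.35, p = 0.162 in the authors' deposited table). Inhbb, the chain of activin B, had the opposite sign in the first comparison, with 1.68 FPKM in GluN1 and 1.85 FPKM in WT cortex, and had 1.93 FPKM in GluN1Cre and 1.69 FPKM in GluN1 cortex. Inha, the inhibin alpha chain, had 15.3 FPKM in GluN1 and 16.2 FPKM in WT cortex. In the other tables, which have their own assembly, its model reaches into Obsl1, with 9.15 FPKM in GluN1Cre and 8.75 FPKM in GluN1 cortex.

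Of the 7 BMP ligand models tested in GluN1 against WT, 0 were called and 5 had a fold above 0. Bmp6 had 4.30 FPKM in GluN1 and 3.30 FPKM in WT cortex (log2 fold 0.38, p = 0.0711 in the authors' deposited table), Bmp4 had 1.73 FPKM in GluN1 and 1.42 FPKM in WT cortex (0.29), and Bmp7 had 6.02 FPKM in GluN1 and 5.18 FPKM in WT cortex (0.22). Bmp5, named for its unadjusted p after its values were seen, had 0.868 FPKM in GluN1 and 0.645 FPKM in WT cortex (log2 fold 0.43, p = 0.0171, q = 0.354 in the authors' deposited table). In GluN1Cre against WT, log2 folds were 0.09 for Bmp6, 0.20 for Bmp4, 0.08 for Bmp7 and 0.30 for Bmp5, with none called. Bmp2 differed by a log2 fold of -0.01 in GluN1 against WT. Bmp3, also named for its unadjusted p after its values were seen, was past it on the higher side between the knockdown genotypes, with 9.53 FPKM in GluN1Cre and 8.19 FPKM in GluN1 cortex (log2 fold 0.22, p = 0.0307, q = 0.969 in the authors' deposited table). Bmp3 had 5.89 FPKM in GluN1 and 6.15 FPKM in WT cortex, and its level for the same group differed by over 10% between tables. The Bmp8b model, merged with Oxct2b, stayed below 1 FPKM, as did a second Bmp6 model, tested in GluN1Cre against GluN1 alone, at 0.180 FPKM in GluN1Cre and 0.293 FPKM in GluN1 cortex. The Bmp6 model reaches into Txndc5 and the Bmp4 model into Gm15217, so reads of those genes may be counted there.

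Beside Gdf10, the GDF ligands were not called. Gdf11 had 5.14 FPKM in GluN1 and 4.01 FPKM in WT cortex (log2 fold 0.36, p = 0.052 in the authors' deposited table) and 5.41 FPKM in GluN1Cre and 4.35 FPKM in WT cortex (0.31). Its assembled model reaches into the neighbouring gene Sarnp. Gdf1 had the highest FPKM of all members in GluN1 against WT, with 41.2 FPKM in GluN1 and 44.0 FPKM in WT cortex (log2 fold -0.10), and 40.1 FPKM in GluN1Cre and 43.9 FPKM in WT cortex. The Gdf1 model also covers Cers1, the ceramide synthase gene that shares its transcript with Gdf1, and reaches into Upf1, so this level cannot be assigned to the growth factor. Gdf9 stayed below 1 FPKM in every group.

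None of the 12 receptor models was called in any of the 3 comparisons. Of all tested models, 2.52%, 0.689% and 0.841% were called in GluN1 against WT, GluN1Cre against GluN1 and GluN1Cre against WT. At these shares, 0 calls among 12 models does not set the receptors apart. In GluN1 against WT, log2 folds of the 7 type I receptors ran from -0.03 to 0.23, those of the 4 type II receptors from -0.04 to 0.10, and Tgfbr3, the co-receptor betaglycan, had 2.03 FPKM in GluN1 and 1.89 FPKM in WT cortex. Acvrl1, the endothelial type I receptor ALK1, had the largest receptor fold there, with 3.61 FPKM in GluN1 and 3.09 FPKM in WT cortex (p = 0.048, q = 0.616 in the authors' deposited table). Endothelial markers had a median log2 fold of 0.25 in the same comparison, with 0 of 6 models called, and their part in the Acvrl1 difference was not tested. Acvr1, another type I receptor, had 10.8 FPKM in GluN1 and 9.80 FPKM in WT cortex. Acvr1b, the activin type I receptor, was the most abundant receptor, with 38.7 FPKM in GluN1 and 39.5 FPKM in WT cortex, and with 41.1 FPKM in GluN1Cre and 38.8 FPKM in GluN1 cortex. Bmpr2, the BMP type II receptor, had 22.2 FPKM in GluN1 and 22.7 FPKM in WT cortex. Tgfbr2, the TGF-beta type II receptor, had 4.05 FPKM in GluN1 and 3.78 FPKM in WT cortex. The Acvr2a model covers Mbd5 and Orc4 as well, and is reported as uncertain.

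Receptor-regulated Smads were not called either, and their log2 folds lay between -0.05 and 0.12 in GluN1 against WT and between -0.01 and 0.07 in GluN1Cre against WT. Smad9 had 3.84 FPKM in GluN1 and 3.52 FPKM in WT cortex, and Smad5 had 7.38 FPKM in GluN1 and 6.91 FPKM in WT cortex. Smad3 had 16.1 FPKM in GluN1 and 16.6 FPKM in WT cortex, and Smad4, the common partner, had 16.6 FPKM in both. Smad6, an inhibitory Smad that BMP signalling itself induces, had 1.17 FPKM in GluN1 and 0.847 FPKM in WT cortex, a log2 fold of 0.47 that did not pass the q threshold (p = 0.0193, q = 0.377 in the authors' deposited table). It had 1.12 FPKM in GluN1Cre and 0.848 FPKM in WT cortex (log2 fold 0.40, p = 0.0488, q = 0.9999 in the authors' deposited table), and 1.15 FPKM in GluN1Cre and 1.19 FPKM in GluN1 cortex. Smad7, the inhibitory Smad that TGF-beta induces, had 8.16 FPKM in GluN1 and 8.12 FPKM in WT cortex.

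Extracellular antagonists and binding proteins had 2 of 10 models called higher in GluN1 against WT, Fst and Grem1, and 9 of 10 folds above 0, with a median log2 fold of 0.16. Of all tested models 1.66% were called higher and 48.8% had a fold above 0, with a median of -0.00. Fstl5, a follistatin-like secreted protein, had 7.60 FPKM in GluN1 and 6.65 FPKM in WT cortex (log2 fold 0.19, p = 0.0335, q = 0.517 in the authors' deposited table). Its relative Fstl4 had 8.92 FPKM in GluN1 and 7.88 FPKM in WT cortex. Nog (noggin, a BMP antagonist) had 5.40 FPKM in GluN1 and 4.84 FPKM in WT cortex, and Ltbp1, which binds latent TGF-beta in the matrix, had 1.78 FPKM in GluN1 and 1.60 FPKM in WT cortex. Chrd (chordin) and Fstl1 had log2 folds of 0.07 and 0.02 in GluN1 against WT. The Fstl3 model spans 672 kb and overlaps 45 other protein-coding genes, so its level is not read here. It is counted among the 10 models, as the 1 with a fold below 0 (log2 fold -0.11). The symbol pattern also took in Bmp1, a procollagen protease that cleaves chordin, with 16.1 FPKM in GluN1 and 15.6 FPKM in WT cortex, and the kinase gene Bmp2k, with 2.26 FPKM in GluN1 and 2.09 FPKM in WT cortex; neither is a ligand.

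Between GluN1Cre and GluN1, 0 of 51 member models were called, where 0.689% of all 18430 models were called, 0.130% higher and 0.559% lower. At an unadjusted p under 0.05 there were 2, Gdf10 on the lower and Bmp3 on the higher side, against 4.19% of all models, 1.18% on the higher and 3.01% on the lower side. Folds were above 0 in 19 of 51 member models and below 0 in 32, with a median of -0.04, against 47.2% of all tested models above 0 and a median of -0.01. In GluN1Cre against WT, 1 of 50 member models was called, Fst, where 0.841% of all 18429 models were called, 0.364% higher and 0.478% lower. At an unadjusted p under 0.05 there were 5 of 50, all on the higher side, where 4.32% of all models passed, 1.82% on the higher and 2.50% on the lower side. Folds were above 0 in 41 of 50 member models, with a median of 0.07, against 46.6% of all tested models and a median of -0.01. The comparisons share groups, so their values for a gene are not independent of each other. Whether a difference from WT changed between GluN1 and GluN1Cre is asked by the comparison of those groups itself, which called no member.

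**Figure D3:**
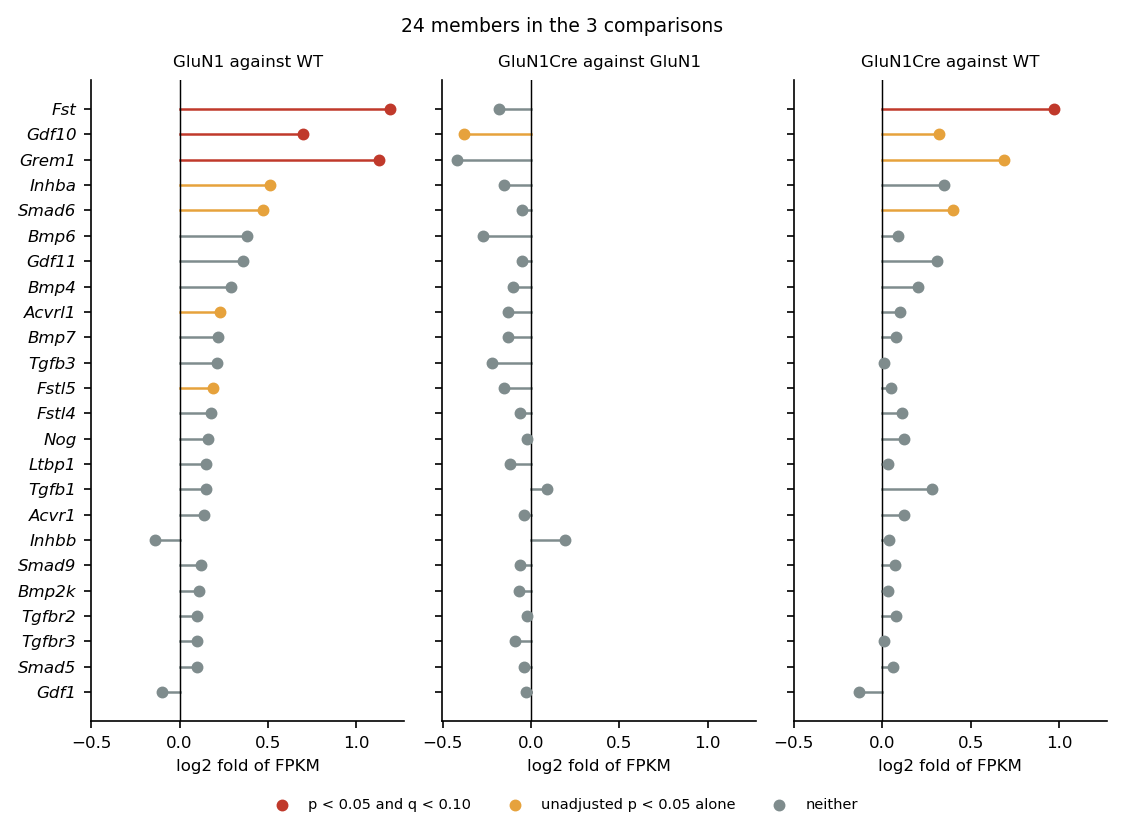
Rows are the 24 members described by rule, columns the 3 comparisons, and points the log2 fold of FPKM (horizontal axis), coloured by the authors' Cuffdiff result. Fst lies at 1.19 in GluN1 against WT, at -0.18 in GluN1Cre against GluN1 and at 0.97 in GluN1Cre against WT.

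Pathway genes outside the symbol rule were read from a list of modulators and a list of transcriptional targets. Of 29 modulator models in GluN1 against WT, 2 rose, 0 fell and 27 were not called, with a median log2 fold of -0.00. Of all tested models 2.52% were called there, 1.66% higher and 0.858% lower, with a median of -0.00. Ltbp2, a matrix protein of the latent TGF-beta binding family, had 0.304 FPKM in GluN1 and 0.111 FPKM in WT cortex (log2 fold 1.46, with q = 0.022 in the authors' deposited table). Bambi, a pseudoreceptor that dampens TGF-beta and BMP signals, had 0.747 FPKM in GluN1 and 0.517 FPKM in WT cortex (log2 fold 0.53, with q = 0.0745 in the authors' deposited table). Both lay below 1 FPKM in each group. A second Ltbp2 model, not tested, had 0.0525 FPKM in GluN1 and 0.0506 FPKM in WT cortex. No Ltbp2 model was tested in GluN1Cre against WT. The tested Ltbp2 model had 0.181 FPKM in GluN1Cre and 0.304 FPKM in GluN1 cortex (p = 0.0054, q = 0.438 in the authors' deposited table), and Bambi had 0.628 FPKM in GluN1Cre and 0.747 FPKM in GluN1 cortex, neither called.

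Of the 12 transcriptional target models, 0 were called in each comparison. An unadjusted p under 0.05 was found for 2, 3 and 2 in GluN1 against WT, GluN1Cre against GluN1 and GluN1Cre against WT. Of all tested models, 7.91%, 4.19% and 4.32% were past it in the same order, and 2.52%, 0.689% and 0.841% were called. At these shares, 0 calls among 12 models does not set the targets apart. The Id genes encode inhibitors of basic helix-loop-helix factors and are direct BMP targets. Id1 had 12.3 FPKM in GluN1 and 10.9 FPKM in WT cortex, and Id3 had 29.6 FPKM in GluN1 and 25.7 FPKM in WT cortex (log2 fold 0.20, p = 0.0467, q = 0.611 in the authors' deposited table). Id2 had 89.2 FPKM in GluN1 and 85.4 FPKM in WT cortex, and 76.5 FPKM in GluN1Cre and 89.4 FPKM in GluN1 cortex (log2 fold -0.22, p = 0.0062, q = 0.464 in the authors' deposited table). Folds of the targets were below 0 in 11 of 12 models in GluN1Cre against GluN1, where 47.2% of all tested models were above 0. Their median log2 fold there was -0.16, against -0.01 for all tested models. In GluN1Cre against WT, 8 of 12 target folds were below 0, with a median of -0.07, against -0.01 for all tested models. In GluN1 against WT, 5 of 12 were below 0, with a median of 0.09. The Id1 model counted in GluN1Cre against WT is merged with H13. It had 26.0 FPKM in GluN1Cre and 26.4 FPKM in WT cortex, so this level cannot be assigned to Id1. Ctgf, a matricellular target of TGF-beta, had 8.31 FPKM in GluN1Cre and 9.93 FPKM in GluN1 cortex (p = 0.0107 in the authors' deposited table). It had 8.19 FPKM in GluN1Cre and 9.90 FPKM in WT cortex (p = 0.0096, q = 0.528 in the authors' deposited table). In GluN1 against WT, Ctgf had 9.89 FPKM in GluN1 and 9.98 FPKM in WT cortex. Tgfbi, named for its unadjusted p after its values were seen, was past it there beside Id3. It had 1.39 FPKM in GluN1 and 1.03 FPKM in WT cortex (log2 fold 0.43, p = 0.0094, q = 0.243 in the authors' deposited table). Astrocyte markers, which mark cells that also express Id genes, had a median log2 fold of 0.08 with 2 of 5 called higher in GluN1 against WT. In GluN1Cre against GluN1 their median was -0.16 with 1 of 5 called lower, Gfap, and their part in the target folds was not tested.

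**Figure D4:**
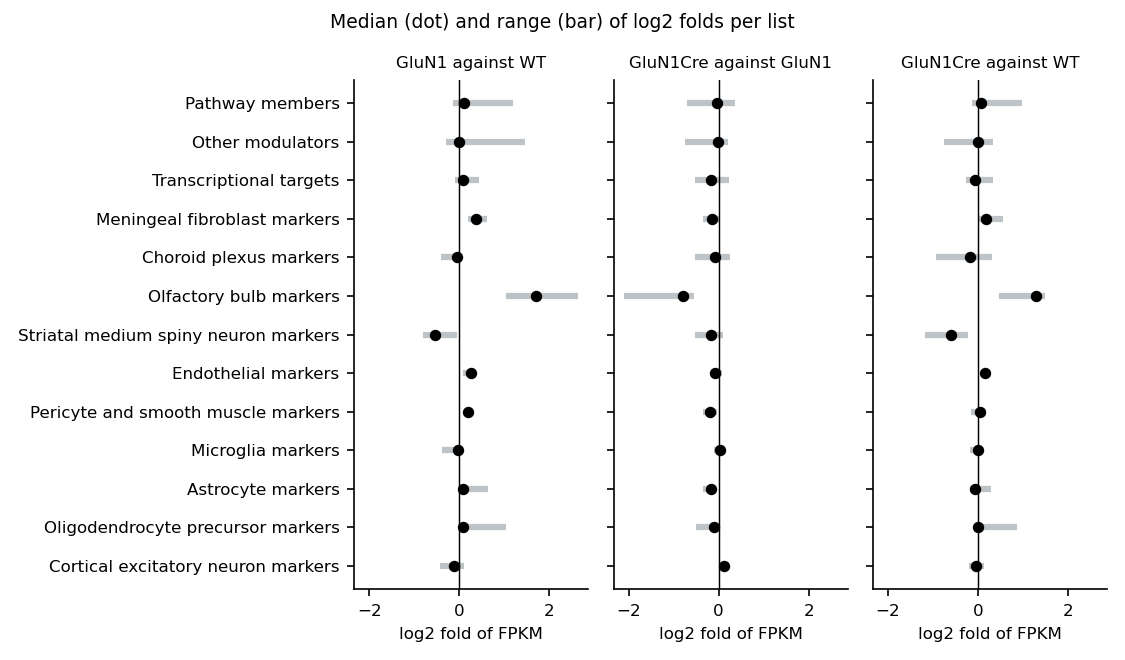
Dots are the median and bars the range of log2 folds of FPKM (horizontal axis) over the tested models of each list (rows) in the 3 comparisons. Pathway members have medians of 0.10, -0.04 and 0.07, while olfactory bulb markers have medians of 1.71, -0.80 and 1.29.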

How the data were processed

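RNA of frontal cortex was sequenced from poly(A)-selected libraries, per the labels' protocols. Tools in the submitters' processing notes are Cuffdiff 2.2.1.3, FastQC 0.65, Cufflinks 2.2.1.0 and TopHat2 2.1.0, and the builds listed there are GRCm38 and mm10. Per the file headers, the authors deposited 3 Cuffdiff tables with 1 FPKM per group, a p-value and a q-value for each assembled gene model. A deposited log2 fold was read for GluN1 against WT and GluN1Cre against WT. Folds of GluN1Cre against GluN1 were not checked against a deposited fold. Each table has its own assembly and normalisation, so differences between groups were taken only inside a table. As a check on levels, for the same group 7 of the 48 members with 1 tested model in every table differed by over 10% between tables. Folds were recomputed here from the deposited FPKM, with no pseudocount (Python 3.11.15, pandas 2.3.3), and the recomputed Benjamini-Hochberg values differed from the deposited q by at most 5.1e-07. The smallest deposited p was 5e-05. Benjamini-Hochberg adjustment was tested on simulated data. The depth per library is unknown, since the tables hold no counts.

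Members were rows with a tested status; coordinates are GENCODE M21 genes (GRCm38), found for all 150 tested member models. The members and the gene lists were chosen with earlier results of these data known. Named were members called in any comparison, then those with the largest absolute fold in GluN1 against WT at a mean FPKM of at least 1, to 24; of the other pathway genes, those called. Alternatives were q under 0.05, adjustment over models of at least 1 FPKM, pseudocounts, centring, and leaving out merged or repeated models. The values of 1 member are not reported here.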

Additional observations from a re-analysis of the deposited data

How the results depend on the processing

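The counts of called members and the median folds stayed within 1.5 times (counts) or 0.05 (log2) of the reported values in all 63 recomputations. Much of this could not have come out otherwise. Apart from adjustment over models of at least 1 FPKM, each setting can only keep or lower a count, so counts of 0 stay. The 0.05 limit is also larger than the median of -0.04 in GluN1Cre against GluN1. The count in GluN1 against WT was 2 in place of 3, at the limit of 1.5 times, where members below a mean FPKM of 1 were left out. That removes Grem1. Median log2 folds ran from 0.07 to 0.10 in GluN1 against WT, from -0.04 to -0.03 in GluN1Cre against GluN1 and from 0.05 to 0.08 in GluN1Cre against WT. The 356 recomputed folds of single members include the q settings, which leave a fold unchanged. They also include centring, with shifts of -0.01, -0.00 and -0.01 in the 3 comparisons. Only pseudocounts could move a fold by 0.05 or more, and 20 folds of members that were not called did so. With 1 FPKM added, the called folds in GluN1 against WT were 0.71 for Fst, 0.43 for Grem1 and 0.52 for Gdf10, and that of Fst in GluN1Cre against WT was 0.54. Reads from overlapping neighbours limit Gdf1, Gdf11, Bmp6, Acvr2a and Fstl3. Models of Acvr1, Bmp2k, Bmp4, Chrd, Smad9 and Tgfb3 also overlap another protein-coding gene, as does that of Inha in the comparisons of GluN1Cre. No paired analysis was possible because the tables hold 1 pooled value per group, so there was also no replicate to leave out.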

Other observations

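Of the 60 symbols, 10 had no tested model in any table: Bmp8a, Bmp10, Bmp15, Gdf2, Gdf3, Gdf5, Gdf6, Gdf15, Inhbc and Inhbe. The highest level among them was 0.168 FPKM, for Inhbe in GluN1Cre cortex. Gdf7 was tested in the tables that hold GluN1Cre alone, with 0.380 FPKM in GluN1Cre and 0.337 FPKM in GluN1 cortex.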
